A study of Mus musculus with 2 samples.

Results

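Natural killer (NK) cells were 96 of the 23930 lung cells kept in 2 droplet-based scRNA-Seq libraries, of which 6 came from Cebpa fl/fl and 90 from Cebpa ΔSftpc mice. The cells were chosen by measured values: a barcode was taken as an NK cell if it held at least 2 unique molecular identifiers (UMIs, each a counted RNA molecule) of Ncr1, Klrb1c and Klre1 together, no more than 1 of the T cell genes Cd3d, Cd3e and Cd3g, and none of the B cell genes Cd79a and Ms4a1. Each barcode also had at least 800 UMIs and 200 genes and at most 20% mitochondrial UMIs. The values of these 8 genes therefore describe how the cells were chosen and support nothing further.

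The study asked how loss of the transcription factor Cebpa in type 2 alveolar (AT2) epithelial cells changes the lung. Both groups carried floxed Cebpa alleles and were dosed with tamoxifen, 75 mg/kg on each of 5 days from about 3 months of age, and lungs were taken 26 weeks after the first dose. For mice studied this late, the methods add a further course of tamoxifen at weekly intervals. Cebpa ΔSftpc mice also carried a tamoxifen-inducible Cre under the Sftpc promoter, which is active in AT2 cells and not in NK cells, so the deletion was not aimed at NK cells. The methods give 3 mice for each genotype and describe the mice as of mixed genetic background. The cells of a genotype were deposited as 1 library whose barcodes do not name the mouse, so no difference between genotypes has a replicate check and no p-value was computed.

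The Cebpa fl/fl library held 69200420 UMIs in 11721 barcodes and the Cebpa ΔSftpc library 64697396 UMIs in 13373 barcodes. Of these, 10906 and 13024 barcodes were kept, with medians of 5057 and 2708 UMIs. In the kept barcodes that were not NK cells, Cebpa, the targeted gene, stood at 33.7 CPM (UMIs per 1000000 UMIs of the cells) in the Cebpa fl/fl and 42.3 CPM in the Cebpa ΔSftpc library, and the NK cells held 0 and 7 Cebpa UMIs. Since many cell types contribute to the first pair of values, they do not check the deletion in AT2 cells. A total of 45 barcode sequences occurred in both libraries, none of them an NK cell.

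NK cells are innate lymphocytes that kill infected, transformed or stressed cells without an antigen-specific receptor. Activating receptors such as NKp46 (Ncr1) and NKG2D (Klrk1) signal through small adaptor proteins, and inhibitory receptors of the Ly49 and NKG2A families restrain the cell when they bind MHC class I. A triggered cell releases perforin (Prf1), which opens the target membrane, and granzymes, proteases that enter through it. The lung holds many NK cells in its vessels, most of them of the mature type that has lost Cd27 and gained the integrin Itgam (CD11b).

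The promoters of 4 genes that carry the identity of these cells are shown because the letters bound by T-box factors (Eomes, Tbx21) and by Runx factors, which control NK cell development, can be read in them. They are the 250 bases before the RefSeq start on GRCm38.p6, written 5′ to 3′ on the strand of the gene, at chr7:4337465-4337714 (plus strand) for Ncr1, chr13:113100982-113101231 (minus strand) for Gzma, chr7:43436888-43437137 (plus strand) for Nkg7 and chr10:61297586-61297835 (plus strand) for Prf1. Capitals mark the T-box core AGGTGT and the Runx core TGTGGT, or their reverse complements ACACCT and ACCACA.
Ncr1: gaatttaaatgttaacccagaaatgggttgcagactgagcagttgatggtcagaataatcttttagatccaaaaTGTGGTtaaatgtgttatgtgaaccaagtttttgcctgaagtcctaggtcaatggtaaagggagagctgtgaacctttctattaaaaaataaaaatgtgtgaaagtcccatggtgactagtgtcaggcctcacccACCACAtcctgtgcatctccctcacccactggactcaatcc
Gzma: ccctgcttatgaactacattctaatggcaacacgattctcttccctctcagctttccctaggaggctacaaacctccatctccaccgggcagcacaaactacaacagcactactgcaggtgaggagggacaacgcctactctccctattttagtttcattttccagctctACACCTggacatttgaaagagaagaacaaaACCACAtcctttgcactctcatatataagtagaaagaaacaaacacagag
Nkg7: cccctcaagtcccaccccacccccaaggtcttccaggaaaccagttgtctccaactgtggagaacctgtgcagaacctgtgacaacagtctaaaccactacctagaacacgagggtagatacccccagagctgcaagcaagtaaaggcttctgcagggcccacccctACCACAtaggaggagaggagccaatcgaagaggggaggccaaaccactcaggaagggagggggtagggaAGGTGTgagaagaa
Prf1: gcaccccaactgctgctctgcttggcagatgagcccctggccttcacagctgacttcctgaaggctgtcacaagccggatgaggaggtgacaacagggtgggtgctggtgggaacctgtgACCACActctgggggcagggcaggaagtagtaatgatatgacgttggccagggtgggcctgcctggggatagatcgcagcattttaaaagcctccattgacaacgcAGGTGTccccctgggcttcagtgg
The Runx letters occurred in the promoters of 8 of the 11 NK cell genes searched, namely Ncr1, Klrb1c, Klre1, Nkg7, Gzma, Gzmb, Prf1 and Klrk1, and in 14.0% of all 32851 promoters of the same length. The T-box letters occurred in 3, Nkg7, Gzma and Prf1, and in 11.8% of all promoters. Neither was found in the windows of Eomes, Tbx21 and Fcer1g. A match of letters is a description and was not tested as a binding site.

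Summed over cells, NK cell markers were high in both libraries. Of 22 NK cell markers that the rule did not use, 21 were found in the 6 Cebpa fl/fl cells, all but the adaptor gene Sh2d1b1, and 22 in the 90 Cebpa ΔSftpc cells. Their summed level was 37923 CPM in Cebpa fl/fl and 40476 in Cebpa ΔSftpc NK cells, against 87.3 and 1321 in all other kept cells. The most abundant was granzyme A (Gzma), a tryptase of the killing granule, in the first group and the chemokine Ccl5 in the second. The number of these markers found in 1 cell ranged from 13 to 17 in Cebpa fl/fl and from 1 to 20 in Cebpa ΔSftpc cells (medians 15.5 and 15), so some gated Cebpa ΔSftpc barcodes held few of them.

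Among the 6 Cebpa fl/fl cells, ordered from 5115 to 7425 UMIs, Gzma was counted at 122, 0, 66, 29, 114 and 66 UMIs. Nkg7, a granule membrane protein, was counted at 7, 6, 14, 14, 23 and 18 UMIs in the same cells. The T cell attractant Ccl5 had 26, 44, 58, 17, 169 and 52. All 6 cells thus held Nkg7 and Ccl5, and 5 of 6 held abundant Gzma. In the 90 Cebpa ΔSftpc cells the lowest, median and highest Gzma counts were 0, 34 and 444, those of Nkg7 were 0, 9 and 61, and those of Ccl5 were 0, 52 and 383. The ranges of the 2 groups overlapped throughout. Gzma was found in 84 Cebpa ΔSftpc cells, Nkg7 in 85 and Ccl5 in 88. The 3 genes of the rule were each missing from some cells, with Ncr1 found in 78, Klrb1c in 77 and Klre1 in 78 of the 90 cells.

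The second of the Cebpa fl/fl cells stood apart from the other five in several genes. It had 9 UMIs of the rule genes and 44 of Ccl5, but 0 of Gzma, of Prf1, of the T-box factor Eomes, of the integrin Itga2 and of the Ly49 genes Klra4, Klra7, Klra8 and Klra9. It held all the UMIs found in these 6 cells of the chemokine receptors Cxcr6 (4) and Cxcr3 (5) and of the interleukin 7 receptor chain Il7r (2). It also held 11 of 16 UMIs of the surface protein Cd7 and 4 of 5 of the chemokine Xcl1. Cxcr6 and Il7r were on the list of genes of tissue-resident innate lymphoid cells, while the integrin Itga1 of that list had 0 UMIs in this cell. In the Cebpa ΔSftpc library, 4 cells of at least 3000 UMIs also lacked Gzma. The first, of 6618 UMIs, held 5 UMIs of Il7r, 4 of Itga1, 2 of Cxcr6 and 21 of the surface protein Emb. The second, of 8082 UMIs, held 4 of Il7r, 5 of the nuclear receptor Rora and 11 of Emb. The third, of 9224 UMIs, held 4 of Eomes, 9 of Xcl1 and 23 of Ctla2a, a protease inhibitor-like gene. The rule genes summed to 15, 11 and 21 UMIs in these 3 cells. The fourth, of 28921 UMIs, was the deepest barcode that met the rule and held 2 UMIs of the rule genes, with 1021 UMIs of dendritic cell markers.

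Depth split the Cebpa ΔSftpc NK cells into 2 ranges. In this library, 34 cells had 878 to 2216 UMIs (median 1334) and 56 had 3929 or more (median 6641.5), with none between, while all 6 Cebpa fl/fl cells had 5115 or more. The shallow cells held fewer UMIs of the NK markers outside the rule, 28952 CPM against 41685 in the deep cells, and more of 11 endothelial markers, 5918 CPM against 638. Their median share of Gzma was 0.825% of UMIs, and that of Gm42418, a gene model over the ribosomal RNA repeat, was 3.90%, against 1.73% in the deep cells and 0.832% in Cebpa fl/fl cells. Across 1685 genes with at least 50 UMIs in the 2 ranges together, 5.52% were 2-fold or more higher and 12.3% 2-fold or more lower in the shallow cells. Shallow barcodes were also more common in the whole Cebpa ΔSftpc library, where 52.3% of kept barcodes had under 3000 UMIs against 24.7% in the Cebpa fl/fl library, so genotype and the shallow range cannot be told apart.

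**Figure D1:**
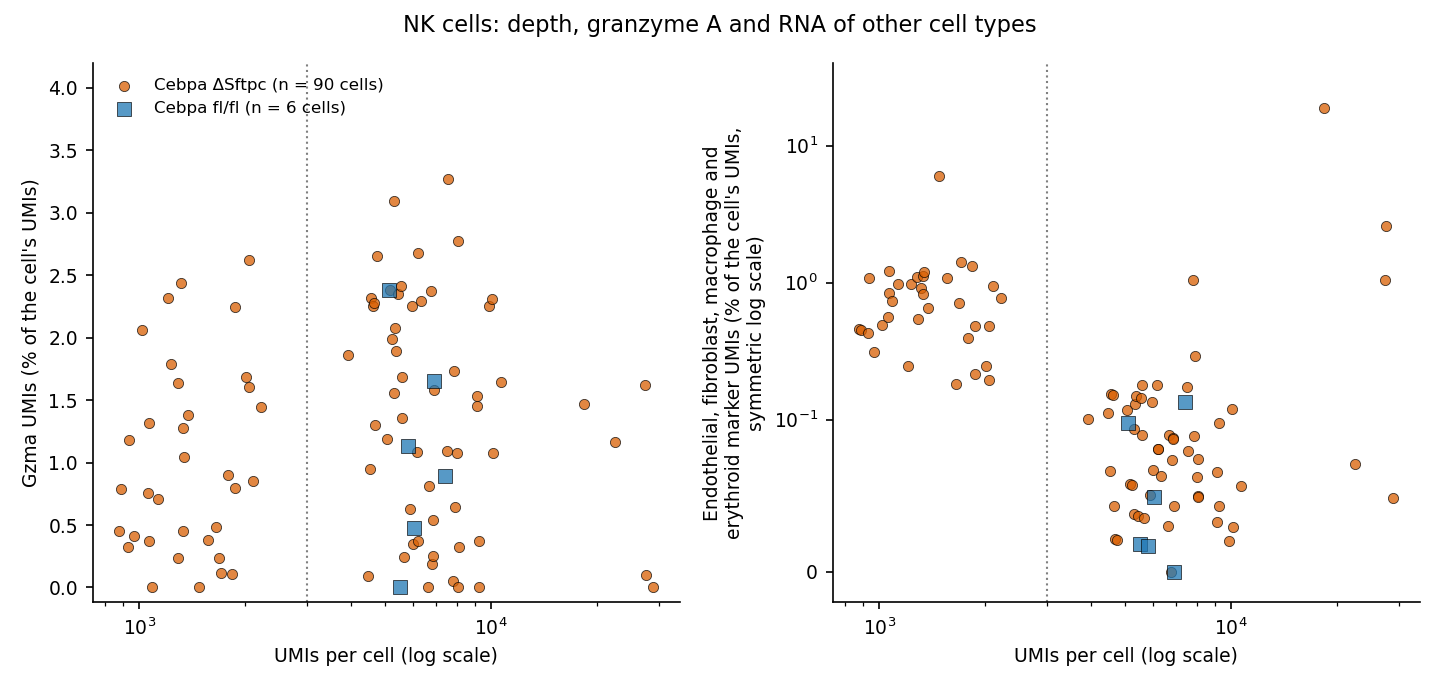
Each point is 1 NK cell, with its total UMIs on the x axis (log scale) and, on the y axes, the share of its UMIs from Gzma (left) and from marker genes of endothelial, fibroblast, macrophage and erythroid cells (right, symmetric log scale). The dotted line marks 3000 UMIs; 34 Cebpa ΔSftpc cells lie to its left and all 6 Cebpa fl/fl cells to its right.

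The 5 deepest Cebpa ΔSftpc cells, of 18388 to 28921 UMIs, differed from the rest and from each other. The first held 270 UMIs of Gzma together with 3409 of hemoglobin genes. The second, of 22480 UMIs, held 62 UMIs of the rule genes and the cell division genes Mki67 (19) and Top2a (17), with only 3 hemoglobin UMIs and 0 of the fibroblast markers. The next, of 27371 UMIs, held 444 of Gzma, 21 of Mki67 and 12 of Top2a beside 273 UMIs of fibroblast markers. The fourth had 704 UMIs of fibroblast markers and 1608 of Mgp, a matrix protein, with 27 of Gzma. The deepest had 2 UMIs of the rule genes, both Klre1, 0 of Gzma and Nkg7, 21 of Klrd1, 493 of the MHC class II chain Cd74, 41 of Ccr7 and 27 of Fscn1, which are genes of migratory dendritic cells. Doublets were not called, and barcodes with RNA of 2 cell types were kept as the rule has them. Of all 53 Mki67 UMIs, found in 12 cells, 75.5% came from 2 of these cells, and no Mki67 or Top2a UMI was found in Cebpa fl/fl cells. A count of 0 in the 36838 UMIs of the Cebpa fl/fl NK cells allows a level of up to 81.4 CPM (3 counts), and a count of 0 in the 512722 UMIs of the Cebpa ΔSftpc NK cells up to 5.85 CPM.

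Because of these cells, values are also given for 51 Cebpa ΔSftpc cells with at least 3000 UMIs, at least 3 UMIs of the rule genes and under 1% of UMIs from endothelial, fibroblast, macrophage and erythroid markers. All 6 Cebpa fl/fl cells met these limits, which were chosen after the data were seen. They are called the cleaner cells here.

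The edges of the rule bear on the same cells. With exactly 2 UMIs of the rule genes there were no Cebpa fl/fl cells, while 18 were from Cebpa ΔSftpc mice, and their Gzma level was 3589 CPM, against 13106 in the 72 Cebpa ΔSftpc cells with 3 or more. Just outside, 7 Cebpa fl/fl and 135 Cebpa ΔSftpc barcodes had exactly 1 such UMI, with Gzma at 0 and 345 CPM. No barcode met the rest of the rule with under 800 UMIs, and 5 Cebpa ΔSftpc cells had 800 to 1000. Of the members, 6 had 1 Cd3 UMI, all in the Cebpa ΔSftpc library, and 1 further Cebpa ΔSftpc barcode was kept out by a B cell gene.

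NK cells made up 0.0550% of kept Cebpa fl/fl barcodes (6 of 10906, exact binomial 95% interval 0.0202 to 0.120) and 0.691% of kept Cebpa ΔSftpc barcodes (90 of 13024, 0.556 to 0.849). The ratio of the shares was 12.6 (5.55 to 35.1), or 3.65 on the log2 scale. Intervals here and below cover counting error only, not the spread between mice. Among barcodes of at least 3000 UMIs the shares were 0.0731% (6 of 8209) and 0.901% (56 of 6212), a log2 ratio of 3.62, so the difference in share was as large without the shallow cells. The other lymphocytes differed in the same direction. T cells were 0.248% and 2.89% of kept barcodes and B cells 0.449% and 4.14%, log2 ratios of 3.54 and 3.20. When each barcode was thinned to 800 UMIs before the rule was applied, 1 and 46 NK cells remained, a log2 ratio of 5.27. When cells with 3 or more UMIs of genes that define another cell type were left out, 2 and 5 remained, a log2 ratio of 1.07 (−1.54 to 4.46).

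Within the lymphocytes, the share of NK cells was close in the 2 libraries under the main rule, though not under every alternative. NK cells were 7.32% of NK, T and B cells together in the Cebpa fl/fl library (6 of 82, 2.73 to 15.2) and 8.96% in the Cebpa ΔSftpc library (90 of 1005, 7.26 to 10.9). The log2 ratio was 0.29, with an interval from −0.89 to 1.78, so a difference of up to about 3.42-fold in favour of Cebpa ΔSftpc was within counting error. With barcodes first thinned to 800 UMIs (1 and 46 NK cells) it was 2.05 (−0.50 to 7.38). Without cells holding 3 or more UMIs of genes defining another type (2 and 5 NK cells) it was −2.24 (−4.85 to 1.15). Of barcodes with a UMI of Ptprc, which encodes the leukocyte antigen CD45, NK cells were 3.05% (6 of 197) and 1.84% (76 of 4132), a log2 ratio of −0.73 (−1.92 to 0.76). Barcodes with a Ptprc UMI were themselves 1.81% and 31.7% of those kept. The labels speak of a sort and the methods of whole-lung suspensions, and the methods deplete CD45+ cells only where epithelial cells are sorted, so the share of leukocytes loaded and the share in the lung cannot be told apart.

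**Figure D2:**
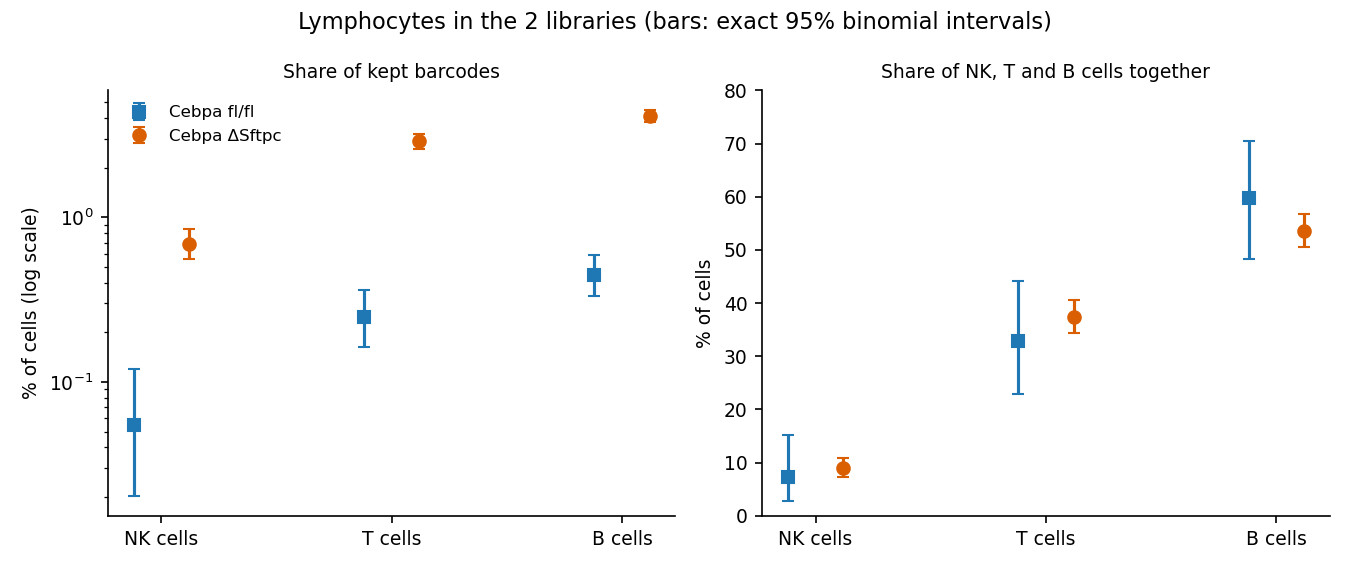
Shares of NK, T and B cells in the Cebpa fl/fl (squares) and Cebpa ΔSftpc (circles) libraries, as a percent of kept barcodes (left, log scale) and of the 3 lymphocyte types together (right), with exact binomial 95% intervals. All 3 types have a larger share of the Cebpa ΔSftpc barcodes, while the NK share of lymphocytes is 7.32% and 8.96% with overlapping intervals.

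Gzma was the most abundant gene of the granule list in both groups. Levels in CPM are of the summed NK cells of a library, and since 3′ UMIs count molecules they do not scale with transcript length. Gzma stood at 10777 CPM in Cebpa fl/fl and 12124 in Cebpa ΔSftpc cells (log2 ratio 0.17, interval 0.02 to 0.32), and at a log2 ratio of 0.38 in the cleaner cells. Nkg7 stood at 2226 and 2262 (0.02, −0.30 to 0.36). Perforin (Prf1) stood at 896 and 1108 (0.31, −0.20 to 0.86). None of these 3 differed by 2-fold. Granzyme B (Gzmb), which triggers apoptosis in the target, stood at 760 and 1201 (0.66, 0.11 to 1.26). The cysteine protease inhibitor Cst7 (380 and 137, log2 ratio −1.48) and the death ligand Fasl (407 and 166, −1.30) were the 2 granule-list genes past 2-fold lower among the 11 with at least 50 UMIs, and none was past 2-fold higher. Over all 1821 genes at that count, 4.67% were 2-fold or more higher and 4.78% 2-fold or more lower in Cebpa ΔSftpc NK cells, with a median log2 ratio of −0.01. The granule list had a median of 0.17. Its median was 0.27 in the cleaner cells, where 1 of 9 genes compared, Cst7 (−1.21), was past 2-fold lower, beside 2.51% of all genes. Of the 20 NK markers outside the rule at that count, none was past 2-fold higher and 3, Klra4, Klra8 and Cd7, were past 2-fold lower, with a median of −0.09. None of these 20 was past 2-fold lower in the cleaner cells, and the median was 0.22. In these cells 1, Klrg1 (1 and 75 UMIs), was past 2-fold higher, with its 1 UMI raised to 3 and an interval of −0.22 to 3.69. Of all genes compared in the cleaner cells 4.87% were higher and 2.51% lower. Without the 5 deepest cells of each library, which leaves 1 Cebpa fl/fl cell, the log2 ratio of Gzma was −0.83 and that of Gzmb −0.50.

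The shares of cells with a UMI were read after thinning the 6 Cebpa fl/fl and the 56 deep Cebpa ΔSftpc cells to 3000 UMIs each. Gzma was then found in 5 of 6 and in 92.9% of cells, Nkg7 in 6 of 6 and 96.4%, and Prf1 in 4 of 6 and 85.7%. After thinning all NK cells to 800 UMIs, the Gzma shares were 83.3% for Cebpa fl/fl and 91.1% for Cebpa ΔSftpc cells. Endothelial cells, which should lack it, had a Gzma UMI in 0.0253% and 1.38% of cells at the same depth, from unthinned medians of 4972 and 3015 UMIs. The Gzma share in NK cells was far above that background in both libraries.

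Receptors encoded in the natural killer gene complex were widely found. The 24 Klr genes between Klrb1a and Klra2 lie at chr6:128609227-131247362 (GRCm38), a stretch of 2638 kb, and 17 of them had a UMI in Cebpa fl/fl and 24 in Cebpa ΔSftpc NK cells. Klrd1 (CD94), the partner chain of the NKG2 receptors, stood at 1140 and 1061 CPM (log2 ratio −0.10). Klrk1, the NKG2D receptor for stress ligands, stood at 896 and 603 (−0.57, −1.09 to −0.01). The activating receptor Klra4 (Ly49D) stood at 1493 and 614 (−1.28, −1.70 to −0.84), and Klra8 (Ly49H), which sees a cytomegalovirus protein, at 787 and 392 (−1.01, −1.57 to −0.39). The inhibitory Klra9 (Ly49I) stood at 299 and 433 (0.54, −0.33 to 1.56). Of 15 Ly49 and NKG2 genes with at least 50 UMIs, 1 was past 2-fold higher (Klrc1, 3 and 87 UMIs, log2 ratio 1.06, −0.54 to 3.36) and 2 past 2-fold lower (Klra4, Klra8), with a median of 0.12. Of all genes compared 4.67% were higher and 4.78% lower. In the cleaner cells the ratios of Klra4 and Klra8 were −0.95 and −0.58, both inside 2-fold, so that none of the 15 was past 2-fold lower. There, 2 were higher (Klrc1 and Klrg1, the second from 1 Cebpa fl/fl UMI raised to 3), and the median was 0.52. All genes compared in these cells gave 4.87% higher and 2.51% lower. For Klra4, without cells holding UMIs of other types, which left 2 and 5 cells, the ratio was 0.050. The Ly49 and the NKG2 genes are near-identical copies of each other, so reads can be assigned to the wrong member and their single values are uncertain. The part of the mixed genetic background of the mice in these ratios was not tested.

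Ly49 genes were found in part of the cells, as is usual for receptors expressed in a mosaic. The 6 Cebpa fl/fl cells held 6, 0, 8, 13, 22 and 6 UMIs of Klra4, so that 5 of 6 were positive, while 38 of the 90 Cebpa ΔSftpc cells were. At 3000 UMIs per cell, Klra4 was found in 83.3% of 6 and 41.1% of 56 cells. Of 9 Ly49 genes, the Cebpa fl/fl cells then held 0 to 6 each (median 3) and the 56 Cebpa ΔSftpc cells 0 to 5 (median 2), with no Ly49 gene in 9 cells, 1 gene in 10, 2 in 12, 3 in 18, 4 in 6 and 5 in 1.

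In both libraries the most abundant gene on the list of activating receptors, adaptors and kinases was an adaptor, which carries the signal of activating receptors. Tyrobp (DAP12) stood at 2823 and 2255 CPM (log2 ratio −0.32, −0.61 to −0.02), and Fcer1g, the adaptor of Ncr1, at 2823 and 2245 (−0.33, −0.62 to −0.03). Hcst (DAP10), the adaptor of Klrk1, stood at 624 and 519 (−0.27). None of the 10 activating receptor, adaptor and kinase genes at 50 UMIs was past 2-fold in either direction, and their median was −0.21, or 0.07 in the cleaner cells. Of 12 inhibitory and checkpoint genes, 2 were found in Cebpa fl/fl and 9 in Cebpa ΔSftpc cells, and Tigit, Lag3 and Pdcd1 had 0 UMIs in both. Their summed level was 407 and 417 CPM. Of the 2 with at least 50 UMIs none was past 2-fold higher and 1 was lower, beside 4.67% and 4.78% of all genes compared. The 1 gene compared in the cleaner cells was within 2-fold (−0.83).

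Of 24 cytokine receptor and signalling genes, 10 had at least 50 UMIs, and none of these differed by 2-fold between the libraries. Il2rb, the chain through which IL-2 and IL-15 sustain NK cells, stood at 923 and 848 CPM (log2 ratio −0.12). The IL-18 receptor Il18r1 stood at 163 and 224 (0.46, −0.70 to 1.94). The interferon γ receptor Ifngr1 stood at 1303 and 755 (−0.79, −1.22 to −0.32). The 10 genes had a median of −0.06. Among secreted products, Ccl5 stood at 9935 and 13650 (0.46, 0.31 to 0.61) and, in the cleaner cells, at a log2 ratio of 0.79. Ccl4, a chemokine released on activation, stood at 814 and 558 (−0.55, −1.09 to 0.05). Interferon γ (Ifng) had 3 and 37 UMIs, and none of 4 secreted genes at 50 UMIs was past 2-fold.

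Bcl2, which protects lymphocytes from apoptosis, had the second lowest ratio among the genes compared whose interval left out 0. The 6 Cebpa fl/fl cells held 11, 4, 5, 3, 3 and 5 UMIs, and 40 of the 90 Cebpa ΔSftpc cells held any. Its level was 841 and 246 CPM (log2 ratio −1.78, −2.35 to −1.16), and the ratio was −1.39 in the cleaner cells. At 3000 UMIs per cell it was found in 5 of 6 and 28 of 56 cells. At 800 UMIs it was found in 4 of 6 and 17.8% of NK cells and in 1.96% and 3.86% of endothelial cells. The lowest ratio belonged to Sftpc, the surfactant gene of AT2 cells (25 and 39 UMIs, −3.16), which also had a UMI in 51.7% and 15.2% of endothelial cells thinned to 800 UMIs, against 3 of 6 and 11.1% of NK cells at that depth. The part of free RNA in its ratio was not tested. The remaining 8 of the 10 lowest, Usp3, Elf4, Tspan32, Ccdc88c, Nub1, Sema4d, Prkcb and Ttc7, had log2 ratios from −1.71 to −1.51.

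The 10 highest ratios rested mostly on single barcodes. They belonged to Hbb-bs, Mgp, Hba-a1, Cd74, Spp1, Hbb-bt, Hba-a2, Dcn, Gsn and Cst3, genes of red cells, fibroblasts and antigen-presenting cells. Of the 1984 Hbb-bs UMIs 96.6% came from 1 cell, as did 91.0% of 1767 Mgp UMIs, 94.7% of 509 Spp1 UMIs and 87.1% of 566 Cd74 UMIs. The α and β hemoglobin genes are pairs of near-identical copies, so their single values are uncertain. In the cleaner cells, 4.87% of 1233 genes were 2-fold or more higher and 2.51% 2-fold or more lower, and the 10 highest, chosen after the data were seen, were AY036118, Rgs1, Hmgb2, Fos, Itgb7, Sgk1, Klf3, Hsp90aa1, Scgb1a1 and Pomp. Hmgb2, a chromatin protein, stood at 163 and 905 CPM over all cells (6 and 464 UMIs) and, at 3000 UMIs per cell, was found in 2 of 6 and 82.1% of cells. At 800 UMIs it was found in 1 of 6 and 32.2% of NK cells and in 10.9% and 10.3% of endothelial cells. Without the deepest cells, with 1 Cebpa fl/fl cell left, its log2 ratio was −0.075 in place of 2.47. AY036118 had 8 and 846 UMIs (217 and 1650 CPM), and it lies opposite Gm42418 on chromosome 17. The UMIs of Gm42418 summed to 337 and 10264, out of 36838 and 512722 UMIs of the NK cells. Its median share of the UMIs of a cell was 0.832% and 2.01%. Scgb1a1, a club cell gene, was found in 1 of 6 and 71.4% of NK cells at 3000 UMIs. At 800 UMIs it was found in 1 of 6 and 30.0% of NK cells and in 17.6% and 32.1% of endothelial cells, so no difference between NK cells is read from it.

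The lists of NK cell maturation had medians on opposite sides of that of all genes. Of 16 genes of the late, Cd11b side with at least 50 UMIs, 2 were past 2-fold higher and none lower, beside 4.67% and 4.78% of all genes compared, with a median of 0.38. For the cleaner cells 4 of 16 were higher and none lower, beside 4.87% and 2.51% of all genes compared, with a median of 0.65. This list shares Gzma, Gzmb, Prf1 and Ccl5 with the granule and NK marker lists. Of 6 genes of the early, Cd27 side, none was higher and 2, Cd7 and the glycoprotein Thy1, were lower, with a median of −0.52. In the cleaner cells, none of the 5 compared was past 2-fold lower, Thy1 was under the count minimum, and the median was −0.03. Klf2, a factor that keeps lymphocytes circulating, stood at 326 and 677 CPM (log2 ratio 1.05, 0.23 to 2.02). At 3000 UMIs per cell it was found in 5 of 6 and 66.1% of NK cells, and at 800 UMIs in 2 of 6 and 42.2% of NK cells and 65.5% and 62.9% of endothelial cells, which also express it. The part of endothelial RNA in its ratio was not tested beyond the cleaner cells, where the ratio was 1.19. Zeb2, a factor of terminal maturation, stood at 190 and 396 (1.06, −0.01 to 2.39). The galectin Lgals1 stood at 1113 and 1689 (0.60, 0.15 to 1.09). Klrg1, a receptor of terminally mature cells, had 1 and 83 UMIs, and S1pr5, the lipid receptor that lets NK cells leave tissue, 0 and 43. Both Cebpa fl/fl sums are raised to 3 for a ratio, so the size of a fold cannot be read for either gene. Of the early list, Cd7 stood at 434 and 217, and the UMIs of Cd7 in Cebpa fl/fl cells came mainly from the cell without Gzma. Of the 8 Thy1 UMIs in Cebpa fl/fl cells, 7 came from 1 other cell.

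**Figure D3:**
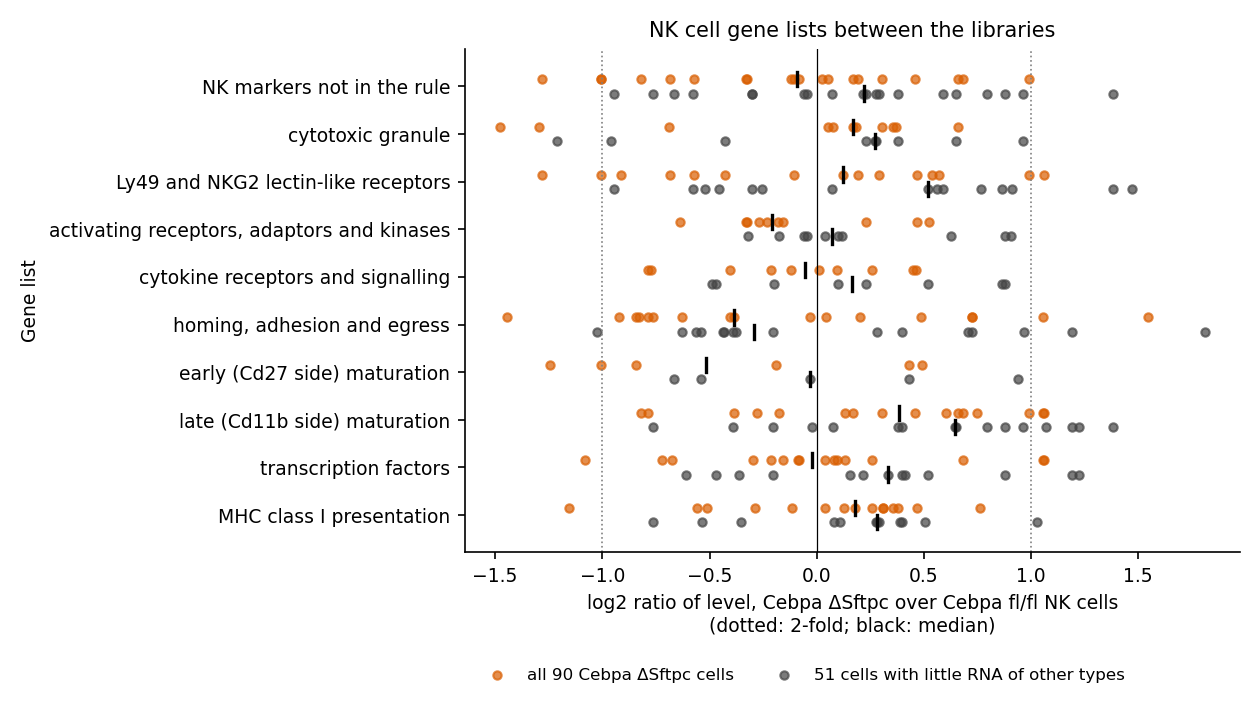
log2 ratio of level in Cebpa ΔSftpc over Cebpa fl/fl NK cells for the genes of 10 lists, 1 point per gene with at least 50 UMIs, for all 90 Cebpa ΔSftpc cells (orange) and for the 51 cleaner cells (grey), with sums under 3 raised to 3. Black strokes are list medians and dotted lines mark 2-fold; most points lie within 2-fold, and the median of the late maturation list is 0.38 and 0.65.

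Several factors of NK cell identity differed by less than 2-fold between the libraries, and others had too few UMIs to compare. Eomes, required for NK cell development, stood at 190 and 179 CPM (log2 ratio −0.08, −1.18 to 1.27). Id2, which blocks other lymphocyte fates, stood at 1004 and 944 (−0.09). Irf8, a factor of antiviral NK responses, stood at 706 and 772 (0.13). Tbx21 (T-bet) had 2 and 67 UMIs, and at 3000 UMIs per cell it was found in 0 of 6 and 35.7% of 56 cells, and Zeb2 in 1 of 6 and 69.6%. Of 28 listed factors, 16 had at least 50 UMIs, with a median of −0.02. Of these 16, 2 were past 2-fold higher (Klf2 and Zeb2) and 1, the Ikaros family factor Ikzf3, was lower. Of all genes compared 4.67% were higher and 4.78% lower. In the cleaner cells, of 13 factors compared, Klf2 and Zeb2 were past 2-fold higher and none lower (Ikzf3 −0.61), with a median of 0.33. All genes compared in these cells gave 4.87% higher and 2.51% lower. Of the homing and adhesion genes, 2 of 17 were past 2-fold higher and 1 was lower, beside the same 4.67% and 4.78% of all genes. Klf2 and the gut homing integrin chain Itgb7 (2 and 122 UMIs) were the higher ones. The lower one was the chemokine receptor Ccr2 (489 and 179 CPM, −1.44, −2.18 to −0.63), which came from 3 of 6 Cebpa fl/fl cells. The same 3 genes were past 2-fold among 16 compared in the cleaner cells, with Ccr2 at −1.02. The depth of 6 cells and 36838 UMIs in Cebpa fl/fl limits all these ratios.

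Within the Cebpa ΔSftpc library, the maturation genes could be set against each other in cells of the same source. Of the 56 deep cells thinned to 3000 UMIs, 29 held Itgam without Cd27, 10 Cd27 without Itgam, none both and 17 neither. Of the 6 Cebpa fl/fl cells, 2 held only Itgam, none only Cd27, 1 both and 3 neither. Unthinned, the 51 cleaner Cebpa ΔSftpc cells comprised 16 with a Cd27 UMI and 32 with Itgam only, with median depths of 6843 and 5790 UMIs. Since these 2 genes made the split, they are left out of what follows, and the values describe cells of 1 library with no test.

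Cells with Cd27 held more of the early genes. Emb, an adhesion partner of lactate transporters, stood at 737 CPM in cells with Cd27 and 68.4 in cells with Itgam only (log2 ratio 3.43, 2.63 to 4.33). Ctla2a stood at 1183 and 164 (2.85), Cd7 at 514 and 105 (2.29), and Xcl1, which attracts cross-presenting dendritic cells, at 223 and 68.4 (1.70). The factor Tcf7 had 15 and 2 UMIs, and Ltb, the lymphotoxin β chain, 21 and 0. Across 1016 genes with at least 50 UMIs, 2.26% were 2-fold or more higher and 4.43% 2-fold or more lower in cells with Cd27, with a median of −0.01. Of the 5 early-list genes at that count, 3 were higher and 1, Dusp2, was lower (−1.67).

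Cells with Itgam only held more of the late-list genes, among them the granule genes Gzma, Gzmb and Prf1. Gzma stood at 7105 CPM in cells with Cd27 and 18450 in cells with Itgam only (log2 ratio −1.38, −1.49 to −1.27). Gzmb stood at 480 and 2115 (−2.14, −2.57 to −1.74), and Prf1 at 686 and 1869 (−1.45, −1.81 to −1.10). The mast cell protease Cma1 stood at 77.1 and 506 (−2.71), the surface protein Ly6c2 at 146 and 1035 (−2.83) and Zeb2 at 171 and 597 (−1.80). The fractalkine receptor Cx3cr1 had 0 and 46 UMIs, S1pr5 1 and 35, and the granzyme inhibitor Serpinb9b 0 and 51. Of 13 late-list genes, 10 were 2-fold or more lower in cells with Cd27 and none higher, with a median of −1.45. These lists were drawn up from knowledge of NK maturation, in which Cd27 and Itgam are the markers of the stages.

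**Figure D4:**
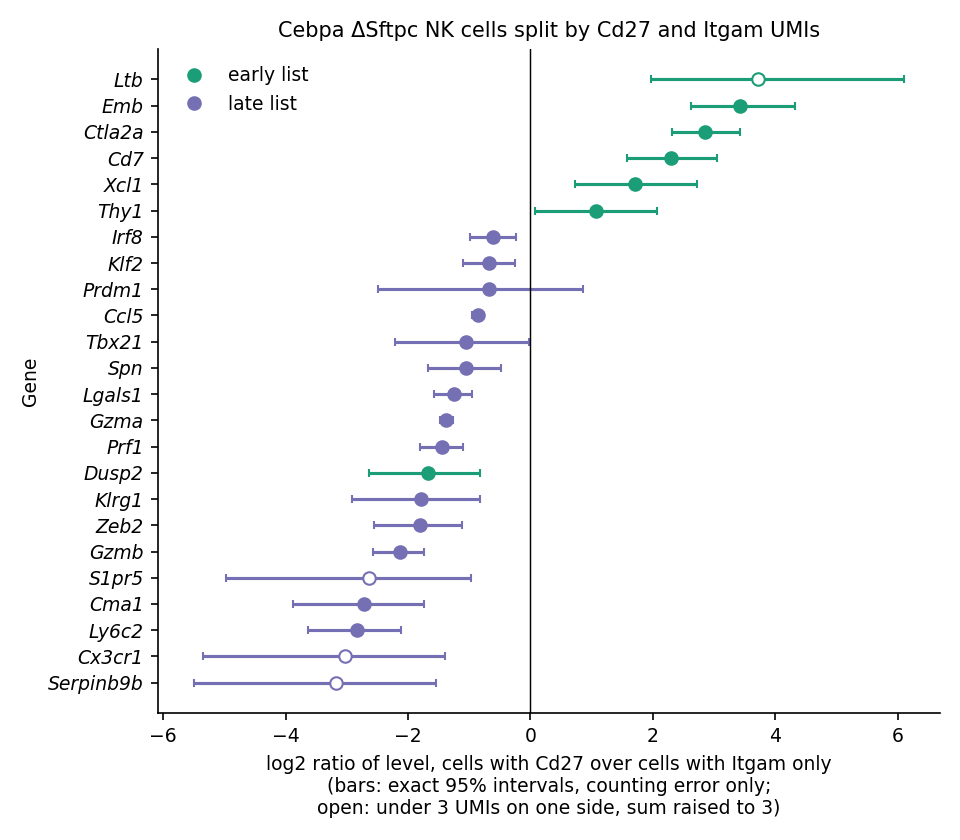
log2 ratio of level in 16 Cebpa ΔSftpc NK cells with a Cd27 UMI over 32 with Itgam only, for genes of the early (green) and late (purple) maturation lists with at least 20 UMIs over both sets, with exact 95% intervals for counting error only. Open symbols have fewer than 3 UMIs on one side, which were raised to 3; all late-list genes shown lie left of 0 and all early-list genes shown but Dusp2 to its right.

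Against T cells of the same library, NK cells were set apart by Gzma, Klra4 and the adaptors Tyrobp and Fcer1g, among other genes. In the Cebpa fl/fl library 9.52% of 672 genes were 2-fold or more higher and 12.5% lower in NK than in T cells, and in the Cebpa ΔSftpc library 6.39% and 8.81% of 7198. In both libraries, 3.59% of 669 genes were higher and 4.33% lower. The log2 ratio of Gzma was 8.28 in the Cebpa fl/fl and 6.69 in the Cebpa ΔSftpc library. That of Klra4 was at least 6.84 in the first library, where T cells held none, and in the second NK cells held 315 UMIs against 2 in T cells. Klrd1 (3.13 and 2.96), Il2rb (2.15 and 2.37), the integrin chain Itgb2 (2.27 and 1.87), Id2 (2.21 and 1.78), the kinase subunit Pik3r1 (2.81 and 1.80) and Ugcg, the glucosylceramide synthase (2.69 and 2.16), were higher in both. Tyrobp and Fcer1g were at least 7.76 higher on the log2 scale in the Cebpa fl/fl library, where no T cell UMI was found. In the Cebpa ΔSftpc library, where the T cells held UMIs of both, their ratios were 3.13 and 3.39.

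Genes of T cells were low in the NK cells. Il7r, the receptor of naive T cell survival, had 2 UMIs in NK against 160 in T cells in Cebpa fl/fl, and 12 against 2450 in Cebpa ΔSftpc. Ltb had log2 ratios of −2.69 and −2.87, and the T cell receptor constant gene Trbc2 of −3.11 and −2.43. Trac had 0 and 3 UMIs in NK cells. The T cell receptor genes Trbc1 (16 and 135 UMIs) and Trbc2 (6 and 91) were still found, as germline transcripts of this locus are in NK cells. In the Cebpa ΔSftpc library 20 of 21 NK markers, 15 of 15 Ly49 and NKG2 genes and 17 of 18 late-list genes were 2-fold or more higher. Of the granule list 10 of 17 were higher, and of activating receptor, adaptor and kinase genes 9 of 22 were higher and 3 lower. Of T markers 11 of 12 were lower in NK than in T cells. All genes compared gave 6.39% higher and 8.81% lower. In the Cebpa fl/fl library 8 of 9 NK markers, 2 of 2 Ly49 and NKG2 genes and 4 of 6 late-list genes were higher. There, 1 late-list gene and 5 of 6 T markers were lower. The gates that separate the cells would give such differences in part.

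**Figure D5:**
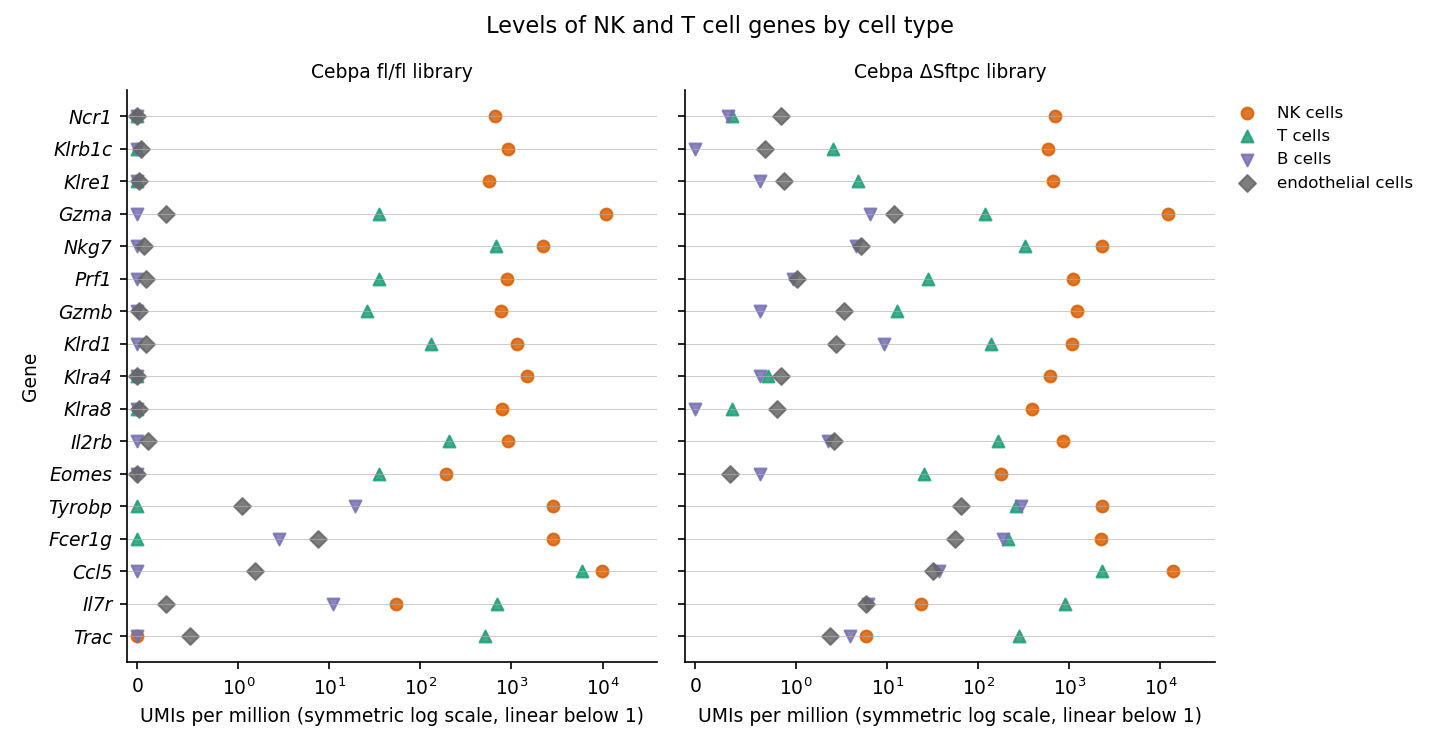
Level of 17 NK and T cell genes, as CPM on a symmetric log scale, in NK, T, B and endothelial cells of the Cebpa fl/fl (left) and Cebpa ΔSftpc (right) libraries; Ncr1, Klrb1c and Klre1 were used to choose the NK cells. Gzma stands at 10777 and 12124 CPM in NK cells, and at 0.281 and 11.8 CPM in endothelial cells.

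The 10 genes outside the rule with the highest level in NK cells over all other kept cells, by the library where the ratio was smaller, were Gzma, Klra4, Klra8, Klra9, Cma1, Prf1, Klrb1a, Klrg1, Klri2 and Serpinb9b. For Gzma the log2 ratio was 14.85 in the Cebpa fl/fl and 8.97 in the Cebpa ΔSftpc library. Genes of other innate lymphoid cells gave few UMIs. Of 11 genes of group 2 innate lymphoid cells, 3 and 4 were found, with 4 and 140 UMIs in sum (109 and 273 CPM). They were led by Rora in the Cebpa fl/fl and by Klrg1 in the Cebpa ΔSftpc cells. Il1rl1, Il5, Il13, Areg, Il17rb and Calca, products and receptors of these lymphoid cells, had 0 UMIs in the NK cells of both libraries. Of 11 genes of tissue-resident innate lymphoid cells, 7 and 10 were found, with 17 and 338 UMIs in sum, led by Cxcr6 in the Cebpa fl/fl and by Tmem176b in the Cebpa ΔSftpc cells.

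RNA of other cell types in the NK cells differed between the libraries, as a list and by its leading gene. Of 11 endothelial markers, 8 were found in Cebpa fl/fl and 11 in Cebpa ΔSftpc NK cells, with 461 and 1139 CPM in sum, and 517 CPM in the cleaner Cebpa ΔSftpc cells. Of 11 macrophage markers, none was found in Cebpa fl/fl and 10 in Cebpa ΔSftpc cells (0 and 80 UMIs), led by Chil3. Of 11 neutrophil markers, 1 and 9 were found (2 and 182 UMIs), led by G0s2 in Cebpa fl/fl and by S100a9 in Cebpa ΔSftpc cells, with Cxcr2 and Ly6g at 0 in both. The Cebpa ΔSftpc NK cells held 512722 UMIs in all against 36838, so UMI sums of a list are not levels. Fibroblast markers gave 3 and 1038 UMIs (81.4 and 2024 CPM), of which 38 were in the cleaner cells, erythroid markers 0 and 3546, with 26 in the cleaner cells, and dendritic markers 5 and 1158 (136 and 2259 CPM), with 67 in the cleaner cells. Of the dendritic list, Xcr1, Clec9a, Cd209a and Itgae were at 0 in both libraries. In CPM, B cell markers stood at 81.4 and 44.9 (3 and 23 UMIs). AT2 markers gave 35 and 99 UMIs, or 950 and 193 CPM, led by Sftpc in both. AT1 markers stood at 353 and 213 CPM (13 and 109 UMIs) and monocyte markers, led by Ccr2, at 760 and 679 CPM (28 and 348 UMIs). Airway markers stood at 163 and 390 CPM (6 and 200 UMIs) and platelet markers at 54.3 and 91.7 CPM (2 and 47 UMIs). As a stand-in for free RNA, the scaled profile of the other kept barcodes of each library was subtracted. Then 76 genes were past 2-fold higher and 90 lower in Cebpa ΔSftpc NK cells, in place of 85 and 87. The scale was the median of 3 marker ratios, NK over other cells, which lay far apart. For airway, AT2 and hemoglobin genes they were 0.0526, 0.0269 and 0 in Cebpa fl/fl and 0.0729, 0.0354 and 1.43 in Cebpa ΔSftpc. The part of whole other cells sharing a barcode was not tested beyond the values given for the cleaner cells.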

How the data were processed

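Single-cell suspensions of mouse lung were run on the 10X Genomics 3′ platform, which reads the 3′ end of each RNA. The authors deposited raw counts of UMIs for each gene and barcode, without normalization, and only for barcodes called as cells. The file headers name Cell Ranger 5.0.0, whereas the processing notes name version 6.1.1, with the mouse genome mm10. The filters on genes and mitochondrial UMIs that the methods state had not been applied and were applied here, with a minimum of 800 UMIs. Doublets were not called.

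NK cells were gated by the rule given above. T cells had at least 2 UMIs of Cd3d, Cd3e and Cd3g and at most 1 of the NK genes, B cells at least 2 of Cd79a and Ms4a1, and endothelial cells at least 3 of Pecam1, Cdh5 and Cldn5 with no Ptprc. For each cell type and library, the UMIs of a gene were added up over cells and scaled to CPM by the total of the same cells. Ratios are log2 of these levels, with exact conditional 95% intervals, after sums under 3 were raised to 3. Genes of at least 50 UMIs over both sides were compared, and past 2-fold means a ratio of 2 or more. With 1 library per genotype there was no test. Shares carry exact Clopper-Pearson intervals. The intervals were tested on simulated data that held counting error only, with no spread between cells or mice. The members, the gene lists and the tests were chosen with earlier results of these data known. Genes could be named if they are in the rule or the marker list, are Cebpa, are among the 10 highest over all other cells, the 10 highest or lowest between libraries with an interval that leaves out 0, or the 10 highest or lowest against T cells, or, in each list, are the most abundant or past 2-fold. Names added after seeing values are those of the cell without Gzma, of the deepest cells, of the cleaner cells and of the split by Cd27, and further list members given for their role. Positions come from GENCODE release M21 for GRCm38, matched by identifier for 32235 of 32285 genes, and promoters from RefSeq, matched by symbol for all 11 genes searched. Some genes of the lists are counted in the lists' sums but not reported here by name. Alternatives covered the gate, depth, filters, scaling, count minimum, weights, free RNA and low sums. Python 3.11.15 with numpy 2.4.6, scipy 1.17.1 and pandas 2.3.3 was used.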

Additional observations from a re-analysis of the deposited data

Results flagged for a closer look

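In the Cebpa ΔSftpc library, 45 barcodes had at least 2 UMIs of Ncr1, Klrb1c and Klre1 and also at least 2 of Cd3d, Cd3e and Cd3g, against 1 barcode in the Cebpa fl/fl library. They lie outside the rules for NK and T cells and count only among the other kept barcodes, and drew attention because their number is above that in the control library. NK and T cells together were also more numerous in the Cebpa ΔSftpc library, 466 against 33, and the control value rests on 1 barcode. These 45 barcodes were deep, with a median of 10356 UMIs. They held 153 UMIs of the T cell receptor gene Trac, Ccl5 at 8512 CPM and Gzma at 324 CPM, where the NK cells of the same library had 12124. Of the 45, 1 had exactly 2 Cd3 UMIs. Whether they are single cells was not tested.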

How the results depend on the processing

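With 1 library per genotype the ratios have no replicate check, and 6 Cebpa fl/fl cells limit every one of them. No paired analysis was possible because each genotype is 1 library with no replicate number. The log2 ratio of the share of NK cells was 3.65, 5.27 when barcodes were first thinned to 800 UMIs (1 and 46 cells) and 1.07 without cells holding 3 or more UMIs of genes defining another type (2 and 5 cells). The share among lymphocytes moved from 0.29 to 2.05 and −2.24 under these settings. Of genes compared between libraries, 85 were past 2-fold higher and 87 lower. In the 2 and 5 cells with fewer than 3 UMIs of genes defining another type these were 7 and 9. Most of the 51 cleaner cells were removed by that limit too. At a count minimum of 200 they were 23 and 5, and without the 5 deepest cells of each library 12 and 841. The last setting leaves 1 Cebpa fl/fl cell of 5115 UMIs, with sums under 3 raised to 3. Its lower genes therefore rest in part on this floor. With 1 added to each sum 130 were higher, at a minimum of 20 UMIs 667 were lower, since low sums are raised to 3, and in the cleaner cells 31 were lower. The median of the NK markers moved from −0.09 to 0.38 in the 2 and 5 cells, −0.66 without the deepest cells and 0.22 in the cleaner cells. That of the granule list moved from 0.17 to 0.80 in the 2 and 5 cells, and that of the Ly49 and NKG2 list from 0.12 to −1.42 without the deepest cells. At a minimum of 20 UMIs, genes higher in NK than in T cells were 297 in place of 64 in the Cebpa fl/fl and 800 in place of 460 in the Cebpa ΔSftpc library. The share of Cebpa ΔSftpc cells with a UMI, thinned to 800, was 54.4% for Prf1, 24.4% for Itgam and 13.3% for Klrg1. It was 74.4%, 53.3% and 34.4% unthinned, and 85.7%, 51.8% and 25.0% for cells of at least 3000 UMIs thinned to 3000.

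Signs turned for 8 genes that were past 2-fold. Klra4 stood at 0.050 without cells of other types. Without the deepest cells, Hbb-bs stood at −1.95, Mgp at −1.64, Cd74 at −1.83, Gsn at −1.997, Cst3 at −1.40, Rgs1 at −0.80 and Hmgb2 at −0.075. The 1 Cebpa fl/fl cell left, of 5115 UMIs, held 0 hemoglobin and 0 Mgp UMIs, which were raised to 3. Its sums of Cd74 and Rgs1 were under 3 too. The turned signs of Hbb-bs, Mgp, Cd74 and Rgs1 thus rest on this floor, not on a higher measured level in Cebpa fl/fl cells. Among genes within 2-fold, Gzma turned from 0.17 to −0.83, Gzmb from 0.66 to −0.50 and Ifngr1 from −0.79 to 0.22 without the deepest cells, and the causes beyond the fewer cells were not tested. The alternatives with 3000 UMIs or with the cleaner cells were chosen after seeing the data. Scaling by the median of gene ratios shifted all ratios by −0.01.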

Other observations

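Outside the NK cells, the libraries also differed in signals that NK cells receive. Il18, which primes NK cells for interferon γ release, stood at 1.96 CPM in the other kept cells of the Cebpa fl/fl and 37.3 in those of the Cebpa ΔSftpc library (log2 ratio 4.25, interval 3.999 to 4.51). Cxcl9, an interferon-induced chemokine for Cxcr3, stood at 0.102 and 4.06 (5.31, 4.25 to 6.64), and Cxcl10, of the same receptor, at 6.02 and 16.2 (1.43, 1.27 to 1.599). Il15, the survival factor of NK cells, stood at 8.66 and 11.2 (0.37, 0.21 to 0.53). Cx3cl1, the ligand of Cx3cr1, stood at 49.4 and 38.2 (−0.37, −0.45 to −0.29). Of ligands for activating receptors, the NKG2D ligand Ulbp1 stood at 2.63 and 6.29 (1.26, 0.999 to 1.52), while Raet1e, another NKG2D ligand, stood at 1.14 in both (0.01, −0.48 to 0.48) and H60b had 2 and 16 UMIs. Of the DNAM-1 ligands, Pvr stood at 22.2 and 25.7 (0.21, 0.11 to 0.31) and Nectin2 at 22.0 and 11.1 (−0.99, −1.12 to −0.86). Il12b, a subunit of IL-12, stood at 0.892 and 1.93 (1.11, 0.66 to 1.58), and Il12a, the other subunit, at 2.73 and 1.77 (−0.63, −0.98 to −0.28). These levels are sums over all other cells, so a different mix of cell types and a different level per cell cannot be told apart.

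MHC class I genes, whose products the inhibitory Ly49 and NKG2A receptors bind, lay close in the NK cells themselves. H2-K1 stood at 2552 and 2892 CPM (log2 ratio 0.18, −0.12 to 0.50) and B2m, the shared light chain, at 2117 and 2313 (0.13, −0.20 to 0.48). Of 15 genes of this list with at least 50 UMIs none was past 2-fold higher and 1, the peptide transporter Tap2, was lower, with a median of 0.18. Of all genes compared 4.67% were higher and 4.78% lower, or 4.87% and 2.51% in the cleaner cells. In the cleaner cells none of 12 was lower and 1, H2-Q6 (1.03), was higher. Of 6 interferon response genes, none was higher and 1, Gbp7, was lower, with a median of −0.39, and none of 3 was past 2-fold in the cleaner cells. Of 9 glycolysis genes none was past 2-fold, with a median of 0.02, and of 7 proliferation genes 4 were higher, against 4.67% of all genes compared, with a median of 1.03, and 2 of 6 in the cleaner cells. The most abundant of the list, the histone variant H2afz, stood at 1764 and 1783 CPM (0.01, −0.35 to 0.40). The 4 higher genes were Hmgb2 (6 and 464 UMIs), Stmn1 (1 and 101), Tubb5 (6 and 172) and Pcna (2 and 85). Of the UMIs in Cebpa ΔSftpc cells, 36.0% of Hmgb2, 37.6% of Stmn1, 21.5% of Tubb5 and 27.1% of Pcna came from 1 cell, and 75.5% of Mki67 and 80.6% of Top2a from 2 cells. Of 14 immediate-early and stress genes, which respond to handling of cells, 4 were higher (Fos, Jun, Egr1 and Hsp90aa1) and none lower, with a median of 0.21, and 3 of 11 were higher in the cleaner cells. The most abundant of the list, Junb, stood at 2823 and 1997 (−0.50, −0.79 to −0.19).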
